A study of Mus musculus with 10 samples.

Results

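Mouse embryonic stem cells that received an siRNA against Socs3 were compared with cells of the same line that received a non-targeting siRNA, over all genes on the array. The comparison rests on the 2 arrays labelled siSocs3 and the 2 arrays labelled siNonTarget, 4 of the 10 arrays of the series, chosen by their labels alone. All 10 arrays come from NG4 cells, labelled as embryonic stem cells, which were reverse transfected with siRNA, meaning that siRNA and cells were combined at plating. Every group, controls included, was differentiated in retinoic acid and collected 48 h after transfection. The remaining 6 arrays, 2 each for siRNAs against Sox17, Fbxw7 and Rnf31, served to estimate the spread between arrays and as a further set of cells to compare siSocs3 with. No group was left untransfected or without retinoic acid among the arrays used here. All values come from 1 cell line, and whether the arrays of a group stem from separate cultures is not in the labels. The p-values thus measure only the spread between these arrays, which may be technical.

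Socs3 encodes a suppressor of cytokine signalling. The cytokine LIF binds a receptor made of Lifr and Il6st (gp130), JAK kinases then phosphorylate the transcription factor Stat3, and Stat3 activates genes that hold mouse embryonic stem cells in an undifferentiated state. Socs3 is itself switched on by Stat3 and blocks gp130 and the JAK kinases, a negative feedback loop. Through its SOCS box it also joins a cullin ubiquitin ligase, which ties it to the ubiquitin-proteasome system that the series title names. Retinoic acid works in the other direction in these cells. Binding proteins carry it to nuclear receptors, through which it switches on HOX genes and neural transcription factors as pluripotency genes go down.

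Expression was measured as 1 intensity per probe set, and all levels below are log2 intensities of a gene's brightest probe set. A difference is siSocs3 minus siNonTarget on that scale, so 1 is a 2-fold difference; its error is the standard error of a limma model over 5 groups of 2 arrays, and p-values were adjusted over all 18194 genes by the Benjamini-Hochberg method with a threshold of 0.05. "Rose", "fell" and "changed" are used only of genes that passed it. Median probe set intensities lay between 46.39 and 47.95 on the 10 arrays. The siSocs3 arrays differed at least 2-fold from each other at 13 genes, the siNonTarget arrays at 220. As a check of RNA integrity, actin probe sets at the 3' end exceeded those at the 5' end by 0.29 and 0.28 log2 units on the siSocs3 arrays and by 0.50 and 0.25 on siNonTarget replicates 1 and 2. With 2 arrays per group an exact permutation test of a single gene cannot give a two-sided p under 0.333, and precision is limited by the number of arrays.

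The transcript that the siRNA was meant to lower was not lower in the cells labelled siSocs3. Probe set 1416576_at of Socs3 stood at 8.73 and 8.33 on the siSocs3 arrays, against 7.98 and 8.20 on the siNonTarget arrays, a difference of 0.44 ± 0.19 (adjusted p = 0.201 over all probe sets). For 1455899_x_at the levels were 10.66 and 10.11 in siSocs3 cells and 9.62 and 10.28 in siNonTarget cells, a difference of 0.44 ± 0.24 (adjusted p = 0.309). The third probe set, 1456212_x_at, had 9.92 and 9.40 in siSocs3 cells and 8.96 and 9.43 in siNonTarget cells, a difference of 0.46 ± 0.19 (adjusted p = 0.186). On the last 2 of these probe sets siSocs3 replicate 2 lay within the siNonTarget range, and no probe set passed the test. The label is therefore not borne out at the transcript level, and "siSocs3 arrays" and "siSocs3 cells" mean throughout those labelled so. Socs3 protein was not measured here. Between siSocs3 and siNonTarget cells, neither of which received their siRNAs, Sox17, Fbxw7 and Rnf31 differed by 0.62, 0.11 and 0.15, and none of these passed; knockdown of those genes in their own groups is not described here.

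In total 1684 of 18194 genes (9.26%) changed, of which 654 (3.59% of all genes) were higher and 1030 (5.66%) lower in siSocs3 cells. The difference was at least 2-fold for 214 of the genes that rose and 279 of those that fell, and at least 4-fold for 38 and 34. The median difference over all genes was 0.025. In RNA from whole cultures, fewer cells of a type and less RNA per cell cannot be told apart. Counts of passing genes depended strongly on single arrays: dropping siSocs3 replicate 1 left 63 (52 higher and 11 lower) and dropping siSocs3 replicate 2 left 638 (286 and 352), while dropping siNonTarget replicate 1 left 313 (176 and 137) and its replicate 2 left 1116 (461 and 655). More genes were higher than lower without siSocs3 replicate 1 and without siNonTarget replicate 1, the opposite of the count over all arrays. Dropping both arrays of high actin difference, siNonTarget replicate 1 and siFbxw7 replicate 1, left 858. Because of this, most gene groups below are given with counts under these 4 omissions of 1 array, in the order siSocs3 replicates 1 and 2, then siNonTarget replicates 1 and 2.

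**Figure D1:**
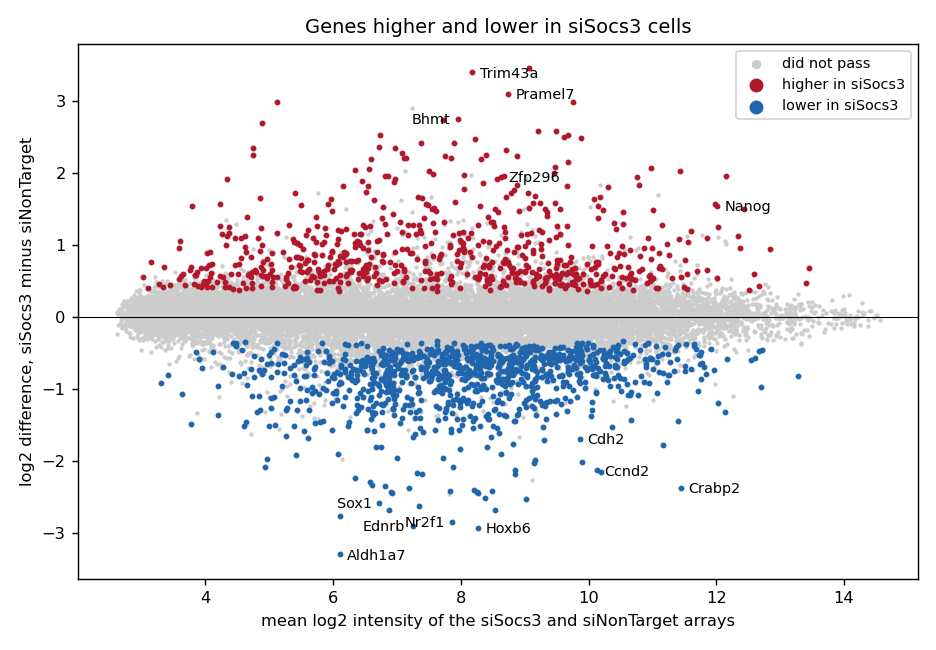
Each point is 1 of 18194 genes, placed by its mean log2 intensity over the siSocs3 and siNonTarget arrays (x axis) and its log2 difference, siSocs3 minus siNonTarget (y axis). The 654 red genes were higher and the 1030 blue genes lower in siSocs3 cells at an adjusted p under 0.05, with Trim43a and Pramel7 among the highest and Aldh1a7 the lowest.

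Of 26 measured components of the LIF pathway upstream of its target genes (receptors, kinases, STATs and regulators), 2 rose and 0 fell (7.69% changed, against 9.26% of all genes), with a median difference of 0.05 (0.01 to 0.08 under the omissions). Lifr differed by -0.12 ± 0.16, adjusted p = 0.683. The shared receptor subunit Il6st differed by -0.27 ± 0.13, adjusted p = 0.203, the kinase Jak1 by 0.11 ± 0.18, adjusted p = 0.759, and Stat3 itself by -0.07 ± 0.20, adjusted p = 0.859. The genes that rose were Stat6, the STAT of interleukin-4 signalling, and Pias2, a SUMO ligase of the family that restrains STATs. Stat6 had 8.88 and 8.72 on the siSocs3 arrays, against 8.0 and 7.97 on the siNonTarget arrays, a difference of 0.82 ± 0.14 (adjusted p = 0.0129), and Pias2 differed by 0.74 ± 0.17, adjusted p = 0.0312; the mean of its probe sets differed by 0.30 and did not pass. Among 31 genes for proteins with a SOCS box, 0 rose and 3 fell (9.68% changed): Spsb4, whose product recruits substrates to cullin ligases, Asb4, an imprinted ankyrin repeat gene, and Socs7. Spsb4 had 6.87 and 7.21 on the siSocs3 arrays, against 9.75 and 9.20 on the siNonTarget arrays, a difference of -2.43 ± 0.55 (adjusted p = 0.0288). Under the 4 omissions the JAK-STAT count of risers was 0, 1, 0 and 1 and the SOCS box count of fallers 0, 0, 0 and 1.

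Of 26 genes described as targets of Stat3, 4 rose and 0 fell (15.4% changed, against 9.26% of all genes), with a median difference of 0.25. Klf4, a zinc finger factor of the pluripotency network that Stat3 activates directly, had 11.12 and 10.68 on the siSocs3 arrays, against 9.37 and 9.16 on the siNonTarget arrays, a difference of 1.64 ± 0.35 (adjusted p = 0.0241). Tfcp2l1, another factor through which LIF acts on self-renewal, had 11.03 and 10.64 on the siSocs3 arrays, against 9.52 and 9.41 on the siNonTarget arrays, a difference of 1.37 ± 0.26 (adjusted p = 0.0176); the mean of its 3 probe sets differed by 0.43 and did not pass. For both genes, on the probe sets shown, every siSocs3 array was above both siNonTarget arrays. This holds for all 654 genes that rose and for 30.6% of all genes. The kinase gene Sgk1 showed 11.92 and 11.55 in siSocs3 cells and 9.40 and 10.19 in siNonTarget cells, a difference of 1.94 ± 0.30 (adjusted p = 0.00933), and Bcl3, a nuclear protein of the IκB family, differed by 0.78 ± 0.12, adjusted p = 0.00848. Other targets did not pass: Pim1 differed by -0.05, Pim3 by 0.15, Myc by -0.18 and Mcl1 by 0.25. Klf5 missed the threshold with 0.83 ± 0.25, adjusted p = 0.0717. The 4 omissions left 0, 3, 0 and 3 risers.

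Most genes listed for naive pluripotency rose in siSocs3 cells. Of 22 measured, 14 rose and 0 fell (63.6% changed, against 9.26% of all genes), and their median difference was 1.08. Nanog, the homeodomain factor at the centre of this network, had 12.87 and 12.71 on the siSocs3 arrays, against 11.26 and 11.24 on the siNonTarget arrays, a difference of 1.54 ± 0.22 (adjusted p = 0.00796). Esrrb, an orphan nuclear receptor downstream of Nanog, had 9.98 and 9.85 on the siSocs3 arrays, against 8.39 and 8.28 on the siNonTarget arrays, a difference of 1.58 ± 0.23 (adjusted p = 0.00811), and 1.0 over the mean of its probe sets. The siSocs3 arrays lay more than 1 log2 unit above both siNonTarget arrays for these genes, and the siNonTarget arrays lay close together. Zfp42 (Rex1), a classical marker of undifferentiated cells, had 11.81 and 11.66 on the siSocs3 arrays, against 10.77 and 10.68 on the siNonTarget arrays, a difference of 1.01 ± 0.17 (adjusted p = 0.0129). Prdm14, a repressor that protects naive cells from FGF signalling and DNA methylation, had 7.96 and 7.67 in siSocs3 cells and 6.56 and 6.52 in siNonTarget cells, a difference of 1.28 ± 0.14 (adjusted p = 0.0037). The F-box gene Fbxo15, known as a marker of pluripotent cells, had 12.97 and 12.56 in siSocs3 cells and 11.07 and 11.34 in siNonTarget cells, a difference of 1.56 ± 0.16 (adjusted p = 0.00271). Prdm14 and Fbxo15 are among the genes that stayed past the threshold in every alternative that tested them. Klf2 differed by 1.09 ± 0.16, adjusted p = 0.00773 and the adhesion gene Jam2 by 1.5 ± 0.21, adjusted p = 0.00664. Tbx3 (0.67 ± 0.19, adjusted p = 0.0591) and Pecam1 (1.18 ± 0.34, adjusted p = 0.0613) did not pass. The count was 2, 9, 6 and 10 under the 4 omissions, while the median ran from 1.03 to 1.2.

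**Figure D2:**
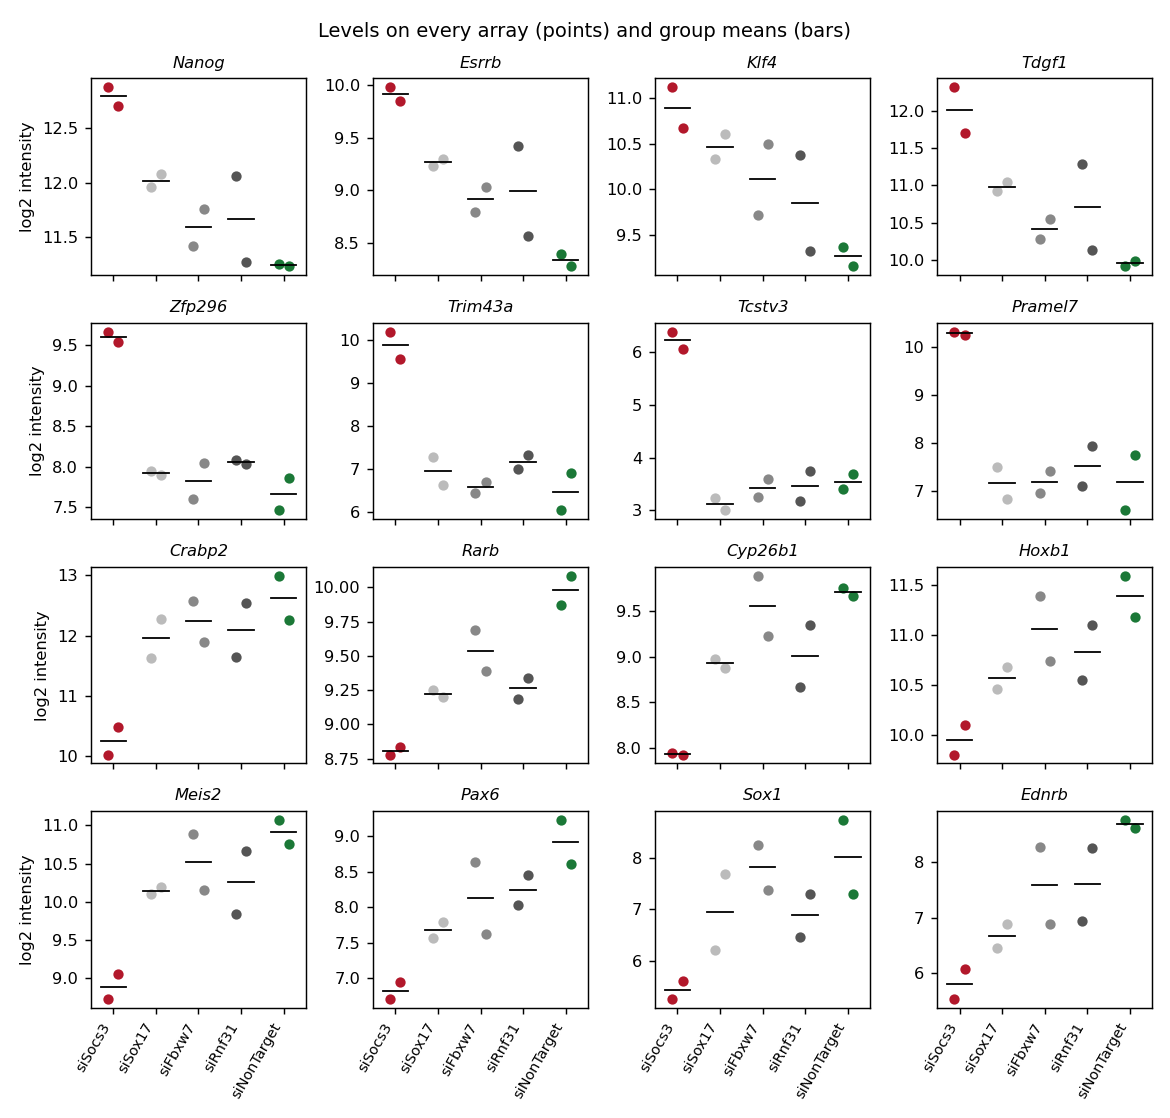
Log2 intensity (y axis) of 16 genes on each of the 10 arrays, grouped on the x axis as siSocs3, siSox17, siFbxw7, siRnf31 and siNonTarget; points are arrays and bars are means of 2. Nanog, Esrrb, Klf4, Tdgf1, Zfp296, Trim43a, Tcstv3 and Pramel7 are highest and Crabp2, Rarb, Cyp26b1, Hoxb1, Meis2, Pax6, Sox1 and Ednrb lowest on the siSocs3 arrays.

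Part of the core pluripotency list rose. Of 19 genes, 5 rose and 0 fell (26.3% changed, against 9.26% of all genes), with a median of 0.35 (0.28 to 0.55 under the omissions). Tdgf1 (Cripto), a co-receptor for Nodal, had 12.32 and 11.71 on the siSocs3 arrays, against 9.92 and 9.99 on the siNonTarget arrays, a difference of 2.06 ± 0.33 (adjusted p = 0.00985). Zfp296, a zinc finger factor of pluripotent cells, had 9.67 and 9.54 on the siSocs3 arrays, against 7.46 and 7.86 on the siNonTarget arrays, a difference of 1.95 ± 0.17 (adjusted p = 0.00215). Utf1, a chromatin factor silenced on differentiation, differed by 1.5 ± 0.24, adjusted p = 0.0101 (0.99 over its probe sets' mean), and L1td1, an RNA-binding protein derived from a LINE-1 element, by 1.19 ± 0.24, adjusted p = 0.0213. Of the core factors besides Nanog, which rose (above), Pou5f1 and Sox2 did not pass. Pou5f1 (Oct4) had 12.53 and 12.63 on the siSocs3 arrays, against 11.84 and 11.10 on the siNonTarget arrays, a difference of 1.11 ± 0.32 (adjusted p = 0.0645), so both siSocs3 arrays lay above both siNonTarget arrays, which holds for 30.6% of all genes. Sox2, which neural progenitors also express, had 11.45 and 11.39 on the siSocs3 arrays, against 11.57 and 11.43 on the siNonTarget arrays, a difference of -0.08 ± 0.14 (adjusted p = 0.761). The counts were 1, 4, 2 and 4 under the 4 omissions. Of 25 genes of formative and primed epiblast, 1 rose and 4 fell (20% changed). Fgf5 (0.07 ± 0.17, adjusted p = 0.832) and Otx2 (0.19 ± 0.12, adjusted p = 0.347), markers of the state that follows the naive one, did not pass. Both were dim. Mean levels in siSocs3 and siNonTarget cells were 4.68 and 4.61 for Fgf5 and 3.43 and 3.23 for Otx2. The median level of all genes over all arrays was 7.002, and such low signal limits what a fall could show. The riser was Dnmt3b. The fallers were Sox4, Sox11, Sall2 and Cd24a, which are also active in neural tissue, and ranged from -1.37 to -0.98; their count under the omissions was 0, 2, 0 and 2.

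Genes named for their activity in the embryo at the 2-cell stage gave the highest median of the lists, 1.61 against 0.025 over all genes. Such genes flare in a small share of embryonic stem cells. Of 18 measured, 12 rose and 0 fell (66.7% changed, against 9.26% of all genes). Trim43a, a TRIM gene active at zygotic genome activation, had 10.20 and 9.57 on the siSocs3 arrays, against 6.05 and 6.91 on the siNonTarget arrays, a difference of 3.40 ± 0.32 (adjusted p = 0.00225). Tcstv3 had 6.39 and 6.07 on the siSocs3 arrays, against 3.40 and 3.68 on the siNonTarget arrays, a difference of 2.69 ± 0.21 (adjusted p = 0.00215), and its relative Tcstv1 had 6.12 and 5.71 in siSocs3 cells and 3.51 and 3.63 in siNonTarget cells, a difference of 2.34 ± 0.24 (adjusted p = 0.00297). On the siNonTarget arrays both Tcstv genes lay near the bottom of the measured range, where changes are compressed; with a pseudocount of 16 they differed by 1.72 and 1.46. Ubtfl1, a gene of preimplantation embryos related to the ribosomal transcription factor Ubtf, had 10.78 and 10.22 on the siSocs3 arrays, against 7.39 and 8.43 on the siNonTarget arrays, a difference of 2.59 ± 0.36 (adjusted p = 0.00703). The zinc finger gene Zfp352 had 10.03 and 9.71 in siSocs3 cells and 7.17 and 7.94 in siNonTarget cells, a difference of 2.31 ± 0.31 (adjusted p = 0.00602). Usp17la, a deubiquitinase, had 12.50 and 12.39 in siSocs3 cells and 10.16 and 10.69 in siNonTarget cells, a difference of 2.02 ± 0.26 (adjusted p = 0.00509), and Sp110, a nuclear body protein, differed by 2.42 ± 0.40, adjusted p = 0.0113 (1.13 over the mean of its probe sets). For 15 of the 18 genes both siSocs3 arrays lay above all 8 other arrays of the series, against 11.3% of all genes. Members that did not pass include Duxf3 (0.41 ± 0.13, adjusted p = 0.0793), of the Dux family that switches this programme on, and Dppa4 (0.35 ± 0.10, adjusted p = 0.0698), an activator of Dux. The count was 3, 12, 9 and 13 under the 4 omissions, and the median ran from 1.44 to 1.78.

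**Figure D3:**
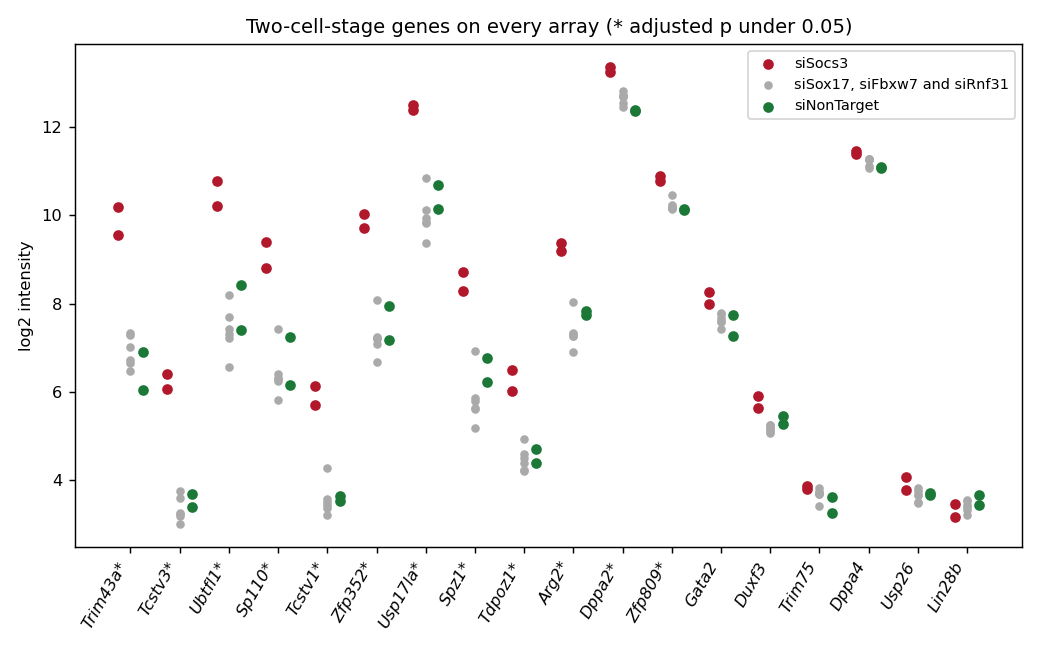
Log2 intensity (y axis) of 18 genes of the 2-cell-stage list (x axis, ordered by difference) on the 2 siSocs3 arrays, the 6 arrays of the other targeted siRNAs and the 2 siNonTarget arrays. Asterisks mark the 12 genes that rose; for the first 12 genes no other array reaches the siSocs3 points.

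Germ cell genes and families of the early embryo rose in part. Of 14 Pramel and Oog genes, leucine-rich repeat genes of oocytes and early embryos, 5 rose and 0 fell (35.7% changed, against 9.26% of all genes). Pramel7, found in the blastocyst's inner cell mass, had 10.32 and 10.26 on the siSocs3 arrays, against 6.61 and 7.77 on the siNonTarget arrays, a difference of 3.10 ± 0.40 (adjusted p = 0.00509). Pramel6 had 11.35 and 11.15 in siSocs3 cells and 7.68 and 8.86 in siNonTarget cells, a difference of 2.98 ± 0.50 (adjusted p = 0.0114), and Pramel18 differed by 2.50 ± 0.35, adjusted p = 0.00671. The other risers were Pramel13 (1.24 ± 0.26, adjusted p = 0.0222) and Pramel12 (0.93 ± 0.20, adjusted p = 0.0248). The median over the family was 0.27 (0.21 to 0.43 under the omissions); genes of this family resemble each other and probes may not tell all of them apart. Of 52 germline genes 11 rose and 2 fell (25% changed), with a median of 0.12 (0.06 to 0.26 under the omissions). Dazl, an RNA-binding protein of germ cells, had 9.61 and 9.76 on the siSocs3 arrays, against 8.72 and 8.31 on the siNonTarget arrays, a difference of 1.17 ± 0.22 (adjusted p = 0.0157). Tex19.1, which limits retrotransposons in germ cells, had 10.17 and 9.89 on the siSocs3 arrays, against 8.55 and 8.35 on the siNonTarget arrays, a difference of 1.58 ± 0.13 (adjusted p = 0.00215). The X-linked homeobox genes Rhox6, Rhox9 and Rhox5 differed by 1.91, 1.54 and 1.08. Prdm1 (Blimp1), which specifies primordial germ cells, fell, with 6.92 and 7.18 in siSocs3 cells and 8.53 and 8.40 in siNonTarget cells and a difference of -1.41 ± 0.35 (adjusted p = 0.0388). The Pramel count was 0, 3, 2 and 5 under the 4 omissions, and the count of germline risers 1, 7, 4 and 10.

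Of 20 genes of DNA methylation and its removal, 3 rose and 0 fell (15% changed, against 9.26% of all genes). Dnmt3l, the catalytically inactive partner of the de novo methyltransferases, had 10.80 and 11.04 on the siSocs3 arrays, against 9.05 and 9.70 on the siNonTarget arrays, a difference of 1.54 ± 0.40 (adjusted p = 0.0459). Dnmt3b, one of those enzymes, had 11.30 and 11.16 on the siSocs3 arrays, against 10.34 and 10.43 on the siNonTarget arrays, a difference of 0.84 ± 0.15 (adjusted p = 0.0129), and Morc1, which silences transposons in male germ cells, differed by 1.03 ± 0.22, adjusted p = 0.0241. The maintenance enzyme Dnmt1 (-0.03 ± 0.09, adjusted p = 0.876), its cofactor Uhrf1 (0.21 ± 0.12, adjusted p = 0.288) and Dnmt3a (-0.23 ± 0.20, adjusted p = 0.508) did not pass. Without each of the 4 arrays in turn 0, 1, 1 and 2 passed. Of 27 trophectoderm genes, 5 rose and 0 fell (18.5% changed), with a median of 0.62, which was 0.34 without siNonTarget replicate 1 and 0.87 without siNonTarget replicate 2. Plac1, a placental gene on the X chromosome, had 8.15 and 8.29 on the siSocs3 arrays, against 5.65 and 6.23 on the siNonTarget arrays, a difference of 2.28 ± 0.27 (adjusted p = 0.00417). Eomes, a T-box factor of trophoblast and early mesendoderm, had 8.26 and 8.41 in siSocs3 cells and 6.70 and 6.93 in siNonTarget cells, a difference of 1.52 ± 0.27 (adjusted p = 0.0141). Cdx2, which sets trophectoderm identity, had 7.65 and 8.29 in siSocs3 cells and 6.08 and 6.96 in siNonTarget cells and did not pass (1.45 ± 0.41, adjusted p = 0.0602); the keratin genes Krt8 (1.01 ± 0.59, adjusted p = 0.314) and Krt18 (1.05 ± 0.57, adjusted p = 0.276) did not pass either. Trophectoderm counts were 1, 2, 2 and 12 under the 4 omissions.

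The largest rises outside these lists belonged to genes of mixed roles. Crxos, a homeobox gene of the early embryo that lies antisense to the retinal gene Crx, had 11.25 and 10.34 on the siSocs3 arrays, against 6.86 and 7.82 on the siNonTarget arrays, a difference of 3.45 ± 0.45 (adjusted p = 0.00542). Which strand of that locus the probes read was not checked here. Bex6 had 7.30 and 5.94 on the siSocs3 arrays, against 3.52 and 3.75 on the siNonTarget arrays, a difference of 2.99 ± 0.35 (adjusted p = 0.0038), and stayed past the threshold in every alternative that tested it. Mep1b, the beta subunit of the metalloprotease meprin, had 9.20 and 8.97 on the siSocs3 arrays, against 6.31 and 6.40 on the siNonTarget arrays, a difference of 2.73 ± 0.37 (adjusted p = 0.00604). Bhmt, which passes a methyl group from betaine to homocysteine to make methionine, had 9.83 and 8.82 on the siSocs3 arrays, against 6.22 and 6.94 on the siNonTarget arrays, a difference of 2.75 ± 0.41 (adjusted p = 0.00845); Dmgdh, which acts on the dimethylglycine that this reaction leaves, differed by 1.10 ± 0.25, adjusted p = 0.0311. These were the 2 genes that rose among 23 of glycine, threonine and methyl group metabolism (8.7% changed, against 9.26% of all genes; counts of 0, 2, 0 and 1 under the omissions). Nat8f2, an N-acetyltransferase family gene, had 8.13 and 7.68 on the siSocs3 arrays, against 5.10 and 5.99 on the siNonTarget arrays, a difference of 2.36 ± 0.36 (adjusted p = 0.00892), and 0.94 over the mean of its 3 probe sets. Ccl3, a chemokine gene, had 8.43 and 7.84 in siSocs3 cells and 5.60 and 5.97 in siNonTarget cells, a difference of 2.35 ± 0.35 (adjusted p = 0.00851).

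Several genes of the retinoic acid pathway fell in siSocs3 cells. Of 27 genes for receptors, binding proteins and enzymes, 7 fell and 2 rose (33.3% changed, against 9.26% of all genes), with a median of -0.27 (-0.35 to -0.18 under the omissions). Crabp2, which carries retinoic acid to its nuclear receptors, had 10.03 and 10.49 on the siSocs3 arrays, against 12.99 and 12.27 on the siNonTarget arrays, a difference of -2.37 ± 0.38 (adjusted p = 0.00985). Cyp26b1, which breaks retinoic acid down, had 7.94 and 7.93 on the siSocs3 arrays, against 9.75 and 9.66 on the siNonTarget arrays, a difference of -1.77 ± 0.24 (adjusted p = 0.0065). Dhrs3, which turns retinal back into retinol, had 8.57 and 8.75 in siSocs3 cells and 10.29 and 9.49 in siNonTarget cells, a difference of -1.23 ± 0.24 (adjusted p = 0.0189). These genes are switched on by retinoic acid in many cells. All had siSocs3 arrays below both siNonTarget arrays, as did all 1030 genes that fell and 26.7% of all genes. Aldh1a7, an aldehyde dehydrogenase close to Aldh1a1, had the lowest difference of all genes that fell, with 3.97 and 4.93 in siSocs3 cells and 7.41 and 8.11 in siNonTarget cells, a difference of -3.30 ± 0.72 (adjusted p = 0.0266). The receptor partner Rxra rose, with 8.23 and 8.01 in siSocs3 cells and 7.27 and 7.24 in siNonTarget cells and a difference of 0.87 ± 0.12 (adjusted p = 0.00696) (its probe sets' mean, at 0.45, did not pass), as did the alcohol dehydrogenase gene Adh7 (0.65 ± 0.13, adjusted p = 0.0179). Stra8, a retinoic acid target that drives entry into meiosis, also fell, with 12.51 and 12.35 in siSocs3 cells and 13.02 and 12.79 in siNonTarget cells and a difference of -0.48 ± 0.11 (adjusted p = 0.0312). The count of fallers was 1, 3, 2 and 5 under the 4 omissions.

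Rarb, a retinoic acid receptor gene that its own ligand switches on, had 8.78 and 8.83 on the siSocs3 arrays, against 9.87 and 10.08 on the siNonTarget arrays, a difference of -1.17 ± 0.13 (adjusted p = 0.00367), and stayed past the threshold in every alternative that tested it. Cyp26a1, the other textbook target with a response element next to its start, had 12.88 and 12.71 on the siSocs3 arrays, against 13.26 and 12.87 on the siNonTarget arrays, a difference of -0.27 ± 0.14 (adjusted p = 0.275), and did not pass. Their promoters from RefSeq (GRCm38.p6) are shown because both hold the same kind of element while only Rarb passed. Both differences were negative, and whether they differ from each other was not tested. Each window runs from 250 bases before to 50 bases after the gene start, 5' to 3' on the gene's strand, and capitals mark a DR5 element, a direct repeat of nuclear receptor half-sites with a 5-base spacer, searched by that name's pattern on both strands.
Rarb, chr14:16575427-16575726, minus strand: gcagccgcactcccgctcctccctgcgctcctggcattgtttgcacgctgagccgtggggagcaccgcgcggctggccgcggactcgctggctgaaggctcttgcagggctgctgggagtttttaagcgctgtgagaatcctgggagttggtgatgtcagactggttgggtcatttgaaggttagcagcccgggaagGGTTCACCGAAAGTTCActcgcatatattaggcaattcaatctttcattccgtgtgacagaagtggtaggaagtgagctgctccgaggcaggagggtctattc
Cyp26a1, chr19:37697558-37697857, plus strand: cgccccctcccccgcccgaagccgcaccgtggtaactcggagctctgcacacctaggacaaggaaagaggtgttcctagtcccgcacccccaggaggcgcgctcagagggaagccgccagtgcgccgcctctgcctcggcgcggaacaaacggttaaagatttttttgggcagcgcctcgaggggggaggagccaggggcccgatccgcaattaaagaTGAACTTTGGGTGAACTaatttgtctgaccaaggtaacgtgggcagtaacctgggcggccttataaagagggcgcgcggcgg
In Rarb the element reads on the gene's strand and starts 53 bases before the gene start; in Cyp26a1 it reads on the opposite strand and begins 32 bases before it. Such an element was found in 0.0974% of 32851 promoter windows and in 11 of the 14453 tested genes that have a window. Of those 11 genes, Rarb was the only one that changed, beside 9.26% of all genes. So few genes cannot show whether genes with the element changed more or less often than others. In Rarb the element overlaps a match to TTCNNNGAA, the general STAT-type pattern, which 8.3% of all windows hold. A match is a description of the letters and not a measured binding site.

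HOX genes of the low-numbered paralog groups were lower in siSocs3 cells. HOX clusters are read in order in retinoic acid, with low-numbered paralog groups first. Of 33 measured HOX genes 15 fell and 0 rose (45.5% changed, against 9.26% of all genes), with a median of -0.65. Paralog groups 1 to 6 held 15 genes, of which 13 fell, with a median of -1.43, and for all 15 both siSocs3 arrays lay below both siNonTarget arrays (26.7% of all genes do). Groups 7 to 13 held 18 genes, of which 2 fell, Hoxc8 and Hoxc9, with a median of -0.02. The boundary between groups 6 and 7 was chosen after the values were seen. The later genes were also dimmer, with a median siNonTarget level of 5.80 against 9.09 for groups 1 to 6; what part this has in the count was not tested.

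Hoxb1, the earliest retinoic acid target of its cluster, had 9.81 and 10.11 on the siSocs3 arrays, against 11.59 and 11.18 on the siNonTarget arrays, a difference of -1.43 ± 0.25 (adjusted p = 0.0137). Hoxb5 had 6.95 and 7.28 on the siSocs3 arrays, against 10.17 and 9.11 on the siNonTarget arrays, a difference of -2.53 ± 0.52 (adjusted p = 0.0223), and Hoxb6 had 6.62 and 6.98 in siSocs3 cells and 10.41 and 9.07 in siNonTarget cells, a difference of -2.94 ± 0.52 (adjusted p = 0.014). Between them in the HOXB cluster, Hoxb2 differed by -1.53, Hoxb3 by -1.84 and Hoxb4 by -1.38. Hoxb7 did not pass (0.04 ± 0.11, adjusted p = 0.865), and Hoxb9 missed the threshold with -1.36 ± 0.39, adjusted p = 0.0599. In HOXA, Hoxa2, Hoxa3 and Hoxa5 fell, with differences of -1.26, -1.21 (-0.45 and not passing over its probe sets' mean) and -0.70, while Hoxa4 missed the threshold (-0.93 ± 0.26, adjusted p = 0.0549). In HOXC, Hoxc4, Hoxc5 and Hoxc8 differed by -2.18, -2.13 and -2.42. Hoxc6 (-0.20 ± 0.19, adjusted p = 0.547) and Hoxc13 (0.88 ± 0.34, adjusted p = 0.1425) did not pass. In HOXD, Hoxd1 had 5.45 and 5.94 in siSocs3 cells and 8.54 and 7.71 in siNonTarget cells, a difference of -2.43 ± 0.41 (adjusted p = 0.0122), and Hoxd3 differed by -0.65 ± 0.14, adjusted p = 0.0242. The antisense gene Hoxb5os, at 7.56 and 7.93 in siSocs3 cells and 10.71 and 9.85 in siNonTarget cells, differed by -2.54 ± 0.45, adjusted p = 0.0136, and probes of overlapping transcripts in the cluster may not be independent. The HOX count was 0, 6, 1 and 15 under the 4 omissions, and the median over all 33 genes ran from -0.65 to -0.59. For 18 of the 33 both siSocs3 arrays lay below all 8 other arrays, which holds for 10.4% of all genes.

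**Figure D4:**
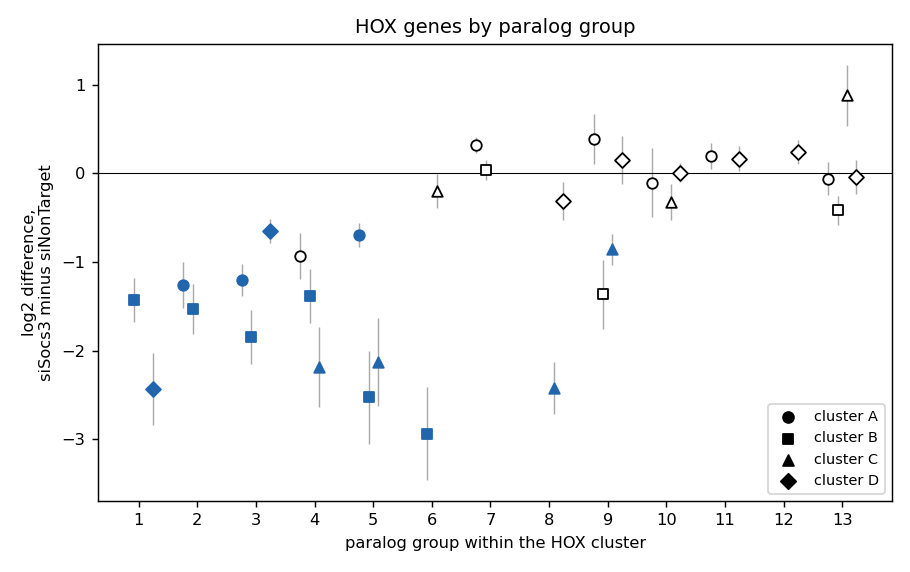
Log2 difference, siSocs3 minus siNonTarget (y axis, bars are standard errors), of 33 HOX genes by paralog group (x axis) and cluster (symbol). Filled symbols fell at an adjusted p under 0.05; 13 of 15 genes in groups 1 to 6 and 2 of 18 in groups 7 to 13 are filled.

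The TALE homeodomain proteins bind DNA together with HOX proteins, and 7 of 16 of their genes fell and 0 rose (43.8% changed, against 9.26% of all genes), with a median of -0.38. Meis2 had 8.73 and 9.05 on the siSocs3 arrays, against 11.07 and 10.76 on the siNonTarget arrays, a difference of -2.02 ± 0.29 (adjusted p = 0.00779). Meis1 differed by -1.19 ± 0.26, adjusted p = 0.0246 and Pbx3 by -1.30 ± 0.22, adjusted p = 0.0129. The Iroquois genes Irx3, Irx5 and Irx1, which pattern the neural tube, differed by -1.71, -1.47 and -0.82. Their count under the 4 omissions was 0, 3, 1 and 3. Of 62 neural transcription factors 7 fell and 1 rose (12.9% changed), with a median of -0.02 (-0.03 to -0.01 under the omissions). Those that fell include regulators of early neural identity. Sox1, the first marker of neural ectoderm, had 5.26 and 5.61 on the siSocs3 arrays, against 8.74 and 7.29 on the siNonTarget arrays, a difference of -2.58 ± 0.58 (adjusted p = 0.0282). Pax6, a master factor of eye and forebrain, had 6.71 and 6.94 on the siSocs3 arrays, against 9.22 and 8.61 on the siNonTarget arrays, a difference of -2.09 ± 0.32 (adjusted p = 0.00881). The nuclear receptor gene Nr2f1 (COUP-TFI), itself induced by retinoic acid, had 6.17 and 6.71 on the siSocs3 arrays, against 9.04 and 9.54 on the siNonTarget arrays, a difference of -2.85 ± 0.57 (adjusted p = 0.0201). Zbtb16 (PLZF) had 5.41 and 5.66 in siSocs3 cells and 8.74 and 7.70 in siNonTarget cells, a difference of -2.68 ± 0.66 (adjusted p = 0.0376), and Zic1 differed by -1.81 ± 0.31, adjusted p = 0.0127. For Sox1 the siNonTarget arrays lay more than 1 log2 unit apart. Both siSocs3 arrays lay below them, as for all 1030 genes that fell. With all probe sets of a gene averaged, Meis1 (-0.74) and Sox1 (-1.37) did not pass, and Pax6 differed by -0.88. The neural list's fallers numbered 0, 3, 0 and 7 under the omissions.

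Of 47 genes of neuronal structure 12 fell and 2 rose (29.8% changed, against 9.26% of all genes), with a median of -0.14 (-0.17 to -0.03 under the omissions). Ptn, a growth factor of developing brain, had 5.86 and 6.18 on the siSocs3 arrays, against 8.75 and 8.57 on the siNonTarget arrays, a difference of -2.64 ± 0.44 (adjusted p = 0.0121), and its relative Mdk (midkine), known as a retinoic acid-responsive gene, differed by -0.82 ± 0.13, adjusted p = 0.00934. Ncam1, the neural cell adhesion molecule, had 7.19 and 7.47 in siSocs3 cells and 9.06 and 8.43 in siNonTarget cells, a difference of -1.42 ± 0.25 (adjusted p = 0.0136). Map2, a microtubule protein of dendrites, differed by -1.15 ± 0.17, adjusted p = 0.00861 and Dclk1 (doublecortin-like kinase) by -1.98 ± 0.30, adjusted p = 0.00872. The tubulin gene Tubb3, a marker of young neurons, did not pass (-0.55 ± 0.26, adjusted p = 0.216). Going the other way, Nefm, a neurofilament gene, had 6.73 and 6.70 in siSocs3 cells and 5.40 and 5.66 in siNonTarget cells, a difference of 1.19 ± 0.20 (adjusted p = 0.0108), and Mapt (tau) differed by 1.08 ± 0.20, adjusted p = 0.0162. These sizes depend on the probe set: averaged over all of a gene's probe sets, Map2 (-0.33) and Ncam1 (-0.61) did not pass, and Dclk1 differed by -0.58, Ptn by -1.66 and Mapt by 0.60. Fallers numbered 0, 7, 1 and 11 under the 4 omissions.

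Of 32 neural crest and enteric neuron genes 5 fell and 2 rose (21.9% changed, against 9.26% of all genes). Ednrb, the endothelin receptor needed by crest cells that form enteric neurons, had 5.53 and 6.06 on the siSocs3 arrays, against 8.77 and 8.63 on the siNonTarget arrays, a difference of -2.91 ± 0.49 (adjusted p = 0.0124). Ret, the receptor of the same lineage, did not pass (-1.32 ± 0.40, adjusted p = 0.0742), while its co-receptor Gfra1 fell (-1.35 ± 0.33, adjusted p = 0.039). Hand2, Zeb2 and Twist1 differed by -1.68, -1.69 and -1.40. Erbb3, a neuregulin receptor, rose, with 9.84 and 9.80 in siSocs3 cells and 8.25 and 8.99 in siNonTarget cells and a difference of 1.20 ± 0.25 (adjusted p = 0.0223). Of 76 axon guidance genes 10 fell and 2 rose (15.8% changed). Plxna2, a semaphorin receptor, had 6.04 and 6.56 in siSocs3 cells and 8.70 and 8.27 in siNonTarget cells, a difference of -2.19 ± 0.35 (adjusted p = 0.0101). Neo1, a netrin and RGM receptor, differed by -1.0 ± 0.18, adjusted p = 0.0141 and the semaphorin Sema4c by -1.18 ± 0.21, adjusted p = 0.014, while Dcc (0.78 ± 0.13, adjusted p = 0.0102) and Robo4 (1.27 ± 0.20, adjusted p = 0.0102) rose. Over probe set means Hand2 (-0.44) and Neo1 (-0.65) did not pass, while Ednrb differed by -1.84, Gfra1 by -0.81, Zeb2 by -0.92, Erbb3 by 0.72 and Dcc by 1.62. Without siNonTarget replicate 1 Gfra1 differed by -0.83 and did not pass. Under the omissions the crest fallers numbered 0, 3, 0 and 4 and the axon guidance fallers 0, 2, 2 and 6.

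**Figure D5:**
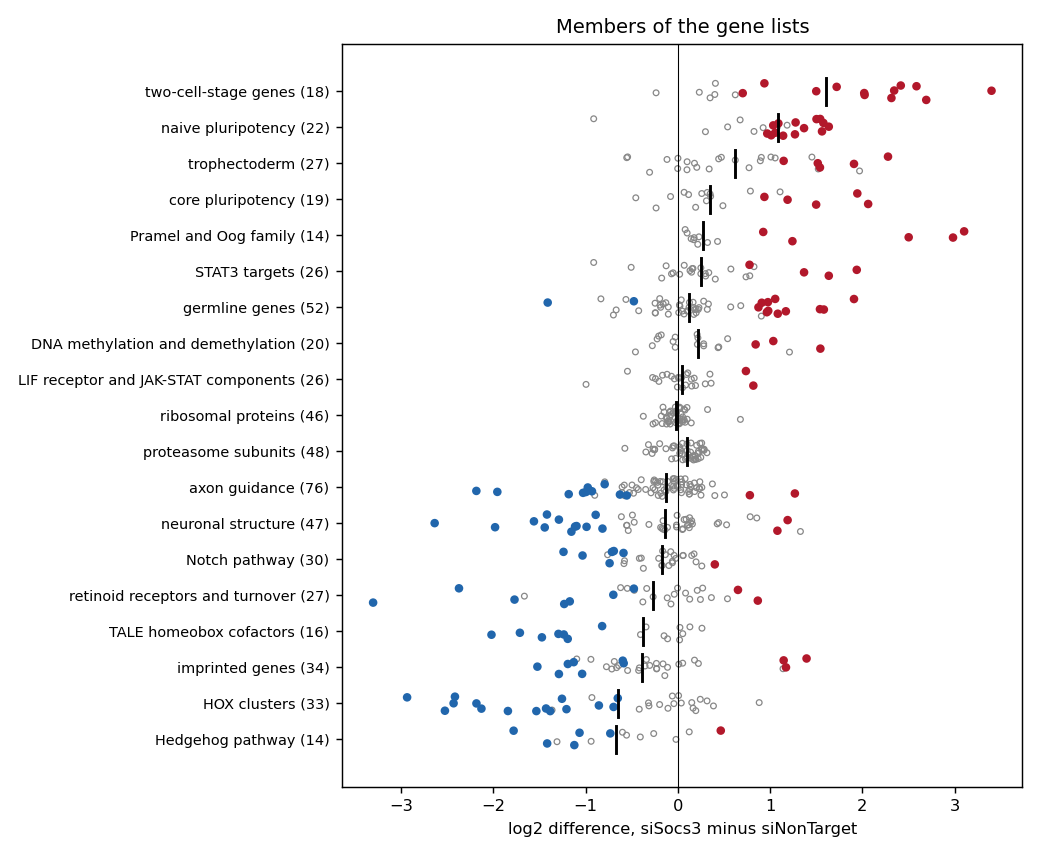
Log2 difference, siSocs3 minus siNonTarget (x axis), of every measured member of 19 gene lists (rows, with the number of members in brackets). Filled red and blue points passed the test, open points did not, and black ticks are medians, which run from 1.61 for the 2-cell-stage genes to -0.67 for the Hedgehog pathway.

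The Hedgehog list had a median of -0.67, with 5 of 14 genes lower and 1 higher (42.9% changed, against 9.26% of all genes). Gas1, a co-receptor for Hedgehog ligands, had 10.11 and 10.45 on the siSocs3 arrays, against 12.11 and 12.02 on the siNonTarget arrays, a difference of -1.78 ± 0.23 (adjusted p = 0.00542). Smo, the signal transducer, had 8.30 and 8.72 in siSocs3 cells and 9.70 and 9.57 in siNonTarget cells, a difference of -1.12 ± 0.20 (adjusted p = 0.0142), and the transcription factor Gli2 differed by -0.73 ± 0.16, adjusted p = 0.0278. Ptch1, receptor and target of the pathway, did not pass (-0.94 ± 0.30, adjusted p = 0.0829). Of 30 Notch genes 6 fell and 1 rose (23.3% changed). The receptors Notch1 (-0.74), Notch2 (-0.69) and Notch4 (-1.03), the target Hes1 (-0.59), Hes6 (-0.72) and Dtx4 (-1.24) were lower. Hes3 was higher, at dim mean levels of 4.83 in siSocs3 cells and 4.43 in siNonTarget cells (0.40 ± 0.11, adjusted p = 0.0489). Against the other targeted groups Hes3 differed by 0.12 and did not pass (adjusted p = 0.502). Averaging probe sets gave -0.64 for Gli2, -0.25 for Notch2 and -0.32 for Notch4, none of which passed. Fallers under the omissions were 0, 2, 1 and 4 for Hedgehog and 0, 2, 1 and 4 for Notch.

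Of 62 WNT genes 5 rose and 8 fell (21% changed, against 9.26% of all genes), with a median of -0.01 (-0.03 to 0.02 under the omissions). Secreted inhibitors went both ways. Sfrp2 had 7.13 and 7.43 on the siSocs3 arrays, against 10.30 and 9.11 on the siNonTarget arrays, a difference of -2.42 ± 0.55 (adjusted p = 0.0293), and Sfrp1 differed by -1.43 ± 0.35, adjusted p = 0.0389. Dkk4 had 5.09 and 4.91 in siSocs3 cells and 3.91 and 3.58 in siNonTarget cells, a difference of 1.25 ± 0.14 (adjusted p = 0.00367), and kept its call in every alternative that tested it, at 0.703 with a pseudocount of 16. Axin2, a feedback target read as a sign of beta-catenin activity, differed by 0.74 ± 0.16, adjusted p = 0.0227, and the receptor genes Fzd3 and Fzd8 by -1.67 and -0.91. Of 53 BMP, Nodal and TGF-beta genes 9 fell and 1 rose (18.9% changed), among the fallers the receptors Bmpr1a (-0.55), Acvr2a (-0.61) and Tgfbr1 (-0.44), the transducer Smad3 (-0.96) and the target Id2 (-1.09). Tdgf1 was the riser, while Nodal itself missed the threshold (0.62 ± 0.17, adjusted p = 0.055). Of 48 FGF and ERK feedback genes 3 rose and 1 fell (8.33% changed). Fgf1 had 9.19 and 8.70 in siSocs3 cells and 7.07 and 7.26 in siNonTarget cells, a difference of 1.78 ± 0.27 (adjusted p = 0.00851). The feedback inhibitor genes Spry2 and Spred1 differed by 0.90 and -0.67. When all probe sets of a gene were averaged, Axin2 (0.45), Fzd3 (-0.48) and Fgf1 (0.50) did not pass, nor did Bmpr1a (-0.17), Acvr2a (-0.13), Tgfbr1 (-0.15) and Smad3 (-0.30). WNT fallers numbered 0, 2, 2 and 7 and BMP list fallers 0, 1, 1 and 2 under the omissions, FGF risers 0, 2, 0 and 1.

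Of 34 imprinted genes 7 fell and 3 rose (29.4% changed, against 9.26% of all genes), with a median of -0.39. Mest had 11.10 and 11.76 in siSocs3 cells and 12.72 and 12.53 in siNonTarget cells, a difference of -1.19 ± 0.29 (adjusted p = 0.0372). The growth-restraining adaptor gene Grb10 differed by -1.04 ± 0.16, adjusted p = 0.009, and Nnat, which neural tissue expresses, by -1.29 ± 0.23, adjusted p = 0.0147. Phlda2, which limits placental growth, rose, with 10.09 and 10.01 in siSocs3 cells and 8.56 and 8.75 in siNonTarget cells and a difference of 1.39 ± 0.19 (adjusted p = 0.00602). The count of fallers was 0, 2, 0 and 4 under the omissions.

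In the cadherin and EMT list 7 of 70 genes fell and 2 rose (12.9% changed, against 9.26% of all genes). Cdh2 (N-cadherin), which replaces E-cadherin as cells leave the epithelial state or become neural, had 8.75 and 9.30 on the siSocs3 arrays, against 10.73 and 10.71 on the siNonTarget arrays, a difference of -1.70 ± 0.23 (adjusted p = 0.0065). Cdh6 had 5.04 and 5.84 in siSocs3 cells and 7.85 and 7.71 in siNonTarget cells, a difference of -2.34 ± 0.53 (adjusted p = 0.0298). Cdh1 (E-cadherin) did not pass (0.40 ± 0.26, adjusted p = 0.355), and Vim did not either (-0.60 ± 0.19, adjusted p = 0.0774). Among EMT transcription factors Zeb1 (-0.79), Zeb2 and Twist1 fell and Snai1 (0.83 ± 0.22, adjusted p = 0.047) rose. Of 62 matrix genes 4 fell and 2 rose (9.68% changed); Col1a2 differed by -1.45 ± 0.33, adjusted p = 0.0309 and the fibrillin gene Fbn2 by -1.99 ± 0.46, adjusted p = 0.0311. Over all its probe sets Zeb1 differed by -0.44 and did not pass, and Cdh6 differed by -1.54. Snai1 differed by 0.49 without siNonTarget replicate 1 and did not pass. Under the omissions the EMT list had 0, 3, 3 and 4 fallers and the matrix list 0, 1, 0 and 3.

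Some regulators of the G1 phase changed. Ccnd2, which neural progenitors use to enter S phase, had 9.04 and 9.09 on the siSocs3 arrays, against 11.79 and 10.60 on the siNonTarget arrays, a difference of -2.13 ± 0.38 (adjusted p = 0.0137). Ccnd1 did not pass (0.57 ± 0.26, adjusted p = 0.2), and Ccnd3 rose (0.46 ± 0.10, adjusted p = 0.0293), though not over the mean of its probe sets (0.34). Of 35 G1 regulators 5 fell and 1 rose (fallers under the omissions 0, 0, 0 and 2), and of 35 mitotic genes 1 rose (0, 1, 1 and 1) and 1 fell (0, 0, 0 and 0). These are 17.1% and 5.71% of the lists, against 9.26% of all genes. The mitotic riser was Pttg1 (securin), with 12.80 and 12.52 in siSocs3 cells and 11.52 and 11.30 in siNonTarget cells and a difference of 1.25 ± 0.16 (adjusted p = 0.00542).

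Stress and immune lists were counted beside the 9.26% of all genes that changed. None of 25 p53 targets passed by limma (4 had an unadjusted p under 0.05), and Cdkn1a (p21) differed by -0.25 ± 0.18, adjusted p = 0.432. Of 37 interferon response genes 2 rose, Oas1a (1.0 ± 0.12, adjusted p = 0.00433) and Rsad2 (0.51 ± 0.12, adjusted p = 0.0323), antiviral genes, Rsad2 without passing over the mean of its probe sets (0.21); the OAS enzymes sense double-stranded RNA. Of the 30 genes of the unfolded protein and stress list 3 rose, all for heat shock proteins. Hspa1a had 10.09 and 9.49 in siSocs3 cells and 7.70 and 8.21 in siNonTarget cells, a difference of 1.84 ± 0.25 (adjusted p = 0.00602), while Hspa1b differed by 1.21 ± 0.20, adjusted p = 0.0103 and Hspb1 by 0.68 ± 0.18, adjusted p = 0.0471. The heat shock gene Hsph1 (0.14 ± 0.10, adjusted p = 0.449) and Hspa5 (0.00 ± 0.09, adjusted p = 0.986), the endoplasmic reticulum chaperone, did not pass. Ndrg1, a hypoxia and stress gene, had 7.58 and 7.51 in siSocs3 cells and 6.01 and 6.02 in siNonTarget cells, a difference of 1.53 ± 0.14 (adjusted p = 0.00215) (0.77 over its probe sets' mean), and kept its call in every alternative that tested it, whereas of 33 hypoxia and glycolysis genes 3 rose and 2 fell. Of 28 NF-kB targets 3 rose, Rel (0.83), Bcl3 (0.78) and Sod2 (0.58; 0.39 and not passing over its probe sets), and 0 fell (risers under the omissions 0, 1, 0 and 1). The share that changed was 5.41% of the interferon list, 10% of the stress list, 10.7% of the NF-kB list and 15.2% of the hypoxia list. The stress list's risers were 0, 2, 1 and 2 under the omissions, the interferon list's 0, 1, 1 and 1 and the hypoxia list's 1, 2, 1 and 1.

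Because the series concerns the ubiquitin-proteasome system, its gene families were counted as well. By limma 0 of 48 proteasome subunit genes passed, with a median of 0.1 (0.04 to 0.1 under the omissions), and 0 of 46 ribosomal protein genes, with a median of -0.02; at an unadjusted p under 0.05 the numbers were 7 and 1. Of 69 F-box genes 3 rose and 5 fell (11.6% changed); the largest changes were the rise of Fbxo15 and the fall of Fbxo32 (atrogin-1), at 5.51 and 5.33 in siSocs3 cells and 8.09 and 7.35 in siNonTarget cells, a difference of -2.30 ± 0.48 (adjusted p = 0.0226). Of 75 RNF genes 2 rose and 8 fell (13.3% changed), with differences from -1.32 at Rnf122 to 0.97 at Rnf125. Among 50 USP genes 2 rose and 7 fell (18% changed), and among 58 TRIM genes 2 rose and 3 fell (8.62% changed); Trim2 differed by -1.16 ± 0.18, adjusted p = 0.00934. Cul5, the cullin that SOCS box proteins bind, rose, with 9.27 and 9.87 in siSocs3 cells and 8.52 and 8.83 in siNonTarget cells and a difference of 0.89 ± 0.19 (adjusted p = 0.0263). Of 36 E1 and E2 enzymes 4 fell (11.1%; -0.66 for Ube2d1, -0.65 for Ube2b) and of 74 BTB adaptors 1 rose and 4 fell (6.76% changed). Over all genes 9.26% changed, 3.59% up and 5.66% down. Among 13 genes of the small RNA machinery that siRNA also uses, 2 fell (15.4%), Prkra (-1.13 ± 0.21, adjusted p = 0.0162) and Ago4 (-0.36 ± 0.09, adjusted p = 0.0447), and Ago2 did not pass (-0.47 ± 0.20, adjusted p = 0.172). Averaged over their probe sets, Fbxo32 (-1.88), Ube2b (-0.32) and Prkra (-0.64) did not pass, and Rnf122 differed by -0.70, Trim2 by -0.64 and Ago4 by -0.55. Under the 4 omissions the fallers numbered 0, 0, 0 and 2 for F-box, 0, 4, 2 and 4 for RNF, 0, 1, 1 and 3 for USP and 0, 0, 0 and 1 for TRIM genes. They numbered 0, 1, 0 and 0 for E1 and E2 enzymes, 0, 3, 0 and 1 for BTB adaptors and 0, 0, 0 and 1 for small RNA genes.

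Markers of other cell types were checked for cells that might differ in number between the groups. The 6 markers of undifferentiated embryonic stem cells summed to intensities of 22066 and 21119 on the siSocs3 arrays and 11646 and 9805 on the siNonTarget arrays, and 4 of them rose. The 4 neural ectoderm markers summed to 588 and 742 on the siSocs3 arrays and 1684 and 1225 on the siNonTarget arrays, and 2 fell. Sums of the 5 extraembryonic endoderm markers overlapped, at 1108 and 1210 in siSocs3 cells and 1107 and 1263 in siNonTarget cells, and 0 of them passed. Fibroblast or feeder markers summed to 1143 and 1292 in siSocs3 cells and 1361 and 1772 in siNonTarget cells, and 1 of 8, Col1a2, fell. The 3 measured blood markers summed to 120 and 101 in siSocs3 cells and 98 and 100 in siNonTarget cells, and none passed. The 3 endothelial markers summed to 92 and 116 in siSocs3 cells and 163 and 127 in siNonTarget cells, and the 4 trophectoderm markers to 488 and 617 in siSocs3 cells and 285 and 471 in siNonTarget cells; none of either set passed. The 2 measured mesoderm markers summed to 103 and 96 in siSocs3 cells and 73 and 75 in siNonTarget cells, and 1, Mixl1 (0.66 ± 0.14, adjusted p = 0.0217), rose. What part these marker levels have in the differences above was not tested. Of the longer primitive streak list 5 of 29 genes rose and 2 fell (24.1% changed, against 9.26% of all genes). The list's median was 0.31 (0.19 to 0.37 under the omissions). Risers included Eomes and Cdx1 (1.39 ± 0.29, adjusted p = 0.0223). The fallers were Foxa2 (-0.94 ± 0.20, adjusted p = 0.0258) and Lhx1 (-0.93 ± 0.19, adjusted p = 0.0199). Against the other targeted groups 1 of the 29 was higher and 0 lower. Neither Cdx1 (0.41, adjusted p = 0.366) nor Eomes (0.85, adjusted p = 0.0616) passed there.

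Comparison with the other 3 targeted siRNAs shows where the siSocs3 arrays differed from cells that also received a targeting siRNA. Against the mean of siSox17, siFbxw7 and siRnf31, 1025 genes (5.63%) changed, 559 (3.07%) higher and 466 (2.56%) lower in siSocs3 cells; this comparison uses the same siSocs3 arrays as the one above and is therefore not independent of it. Its count was 120 without siSocs3 replicate 1 and 373 without siSocs3 replicate 2. Of the 2-cell-stage genes 13 of 18 were higher there, with a median difference of 1.86, beside 1.61 against siNonTarget. Trim43a differed from the other targeted groups by 2.97 ± 0.26 (adjusted p = 0.000622) and Tcstv3 by 2.90 ± 0.17 (adjusted p = 0.000175). Naive pluripotency genes had 11 of 22 higher and a median of 0.78, beside 1.08. Nanog differed by 1.03 ± 0.18 (adjusted p = 0.0146), and Klf4, whose other arrays ran from 9.32 to 10.61, by 0.76 ± 0.28 (adjusted p = 0.166). HOX genes had 11 of 33 lower and 1 higher, with a median of -0.56, beside -0.65. Rarb differed by -0.53 ± 0.11 (adjusted p = 0.0217), beside -1.17 against siNonTarget, and Ednrb by -1.49 ± 0.40 (adjusted p = 0.0675), beside -2.91. Sox1, with other arrays from 6.22 to 8.25, differed by -1.79 ± 0.47 (adjusted p = 0.0632), and Pax6 by -1.19 ± 0.26 (adjusted p = 0.0327). Fbxo32, Prdm1 and Asb4, which fell against siNonTarget, did not pass here. Fbxo32 differed by -0.67 ± 0.39 (adjusted p = 0.375), beside -2.30 against siNonTarget. Prdm1 differed by -0.35 ± 0.28 (adjusted p = 0.537), beside -1.41, and Asb4 by -0.32 ± 0.32 (adjusted p = 0.638), beside -1.52. Retinoid genes had 5 lower and a median of -0.05, Hedgehog genes 3 lower and -0.27, and TALE genes 2 lower and -0.23. For the HOX, retinoid, Hedgehog and TALE lists the median difference was smaller in size against the other targeted groups than against siNonTarget. The same held for the naive pluripotency list and for core pluripotency (0.22 beside 0.35), trophectoderm (0.42 beside 0.62) and Stat3 targets (0.02 beside 0.25). It did not hold for the 2-cell-stage list. Whether these differences differ from each other was not tested.

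Of 455 genes that the naming rule picked, 242 changed, and 12 of these kept their call under every alternative and omission of an array that tested them: Bex6, Dkk4, Fbxo15, Ndrg1, Plac1, Prdm14, Rarb, Tcstv1, Tcstv3, Tex19.1, Trim43a and Zfp296. Of these, Bex6, Dkk4, Tcstv1 and Tcstv3 were too dim to be tested under either filter on dim genes, and Ndrg1, Plac1 and Prdm14 under the stricter one. Rarb is the only one of the 12 that fell. Of the 242, the numbers that lost the call under the 4 omissions were 229, 134, 191 and 97. Among changed genes measured by more than 1 probe set, 1034 in number, 659 had all their other probe sets differing in the same direction. The same share over all genes with more than 1 probe set was not computed, so this count has no background beside it.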

How the data were processed

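Each sample's RNA, 5 ng in total, was amplified, labelled with biotin and hybridised to a 1-colour Affymetrix array, per the labels' protocols. Per the submitters' processing notes, the authors made the deposited intensities with RMA; no version or later scaling is given in the sources used here. RMA evens out array distributions, which hides a shift common to most genes, and compresses changes near background. The intensities are linear, and their log2 was used throughout.

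By the platform annotation, 34958 of 45101 probe sets had 1 symbol, 932 had several and 9211 were not listed, 51 of them array controls. Gene IDs of 34754 matched RefSeq (GRCm38.p6). The probe set with the highest mean stood for each of 18194 genes, without a filter on dim genes. Groups came from the labels. limma 3.58.1 in R 4.3.3 (lmFit, eBayes; 5 residual and 3.98 prior degrees of freedom) was fitted over 5 groups of 2 arrays, two-sided, with Benjamini-Hochberg adjustment over all genes, and was tested on simulated data. Probe sets of Socs3 were tested in a fit of all probe sets with 1 symbol.

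Named genes are Socs3 and the other targeted genes; the 15 largest rises and falls whose siSocs3 arrays lie on 1 side of both siNonTarget arrays, without Gm, Rik and clone names; per list, up to 6 members past the threshold in each direction and up to 4 bright members that did not pass; all HOX genes; and a fixed set. The members, the 49 gene lists and this rule were chosen with earlier results of these data known. Alternatives were a replicate block, 2 other scalings (quantile, median), filters on the dimmest 30% or 50% of genes, a trended prior with robust fitting, probe set means, a pseudocount of 16, the compared groups alone, a 2-fold minimum, every probe set, and omitted arrays. Python 3.11.15 with matplotlib 3.10.9 drew the figures.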

Additional observations from a re-analysis of the deposited data

Results flagged for a closer look

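Probe sets that name no single gene stood outside the comparison by gene, and some of them changed between siSocs3 and siNonTarget arrays. Of 932 probe sets with several symbols 39 were higher and 10 lower in siSocs3 cells, and of 9160 that the annotation does not list, leaving out 51 control probe sets, 92 were higher and 88 lower (limma, adjusted over all probe sets). Both shares were below that of the 34958 probe sets with 1 symbol, of which 2412 passed in a fit of their own. The largest difference among those with several symbols belonged to probe set 1439958_at, with 10.57 and 10.22 in siSocs3 cells and 7.25 and 8.25 in siNonTarget cells, a difference of 2.64 ± 0.42 (adjusted p = 0.0158). Among those not listed it belonged to 1455907_x_at, with 3.53 and 3.71 in siSocs3 cells and 8.03 and 6.84 in siNonTarget cells, a difference of -3.82 ± 0.76 (adjusted p = 0.0295). For both probe sets the siSocs3 arrays lay on 1 side of both siNonTarget arrays, as for every gene that changed. Their genes are not named here.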

How the results depend on the processing

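The count of genes changed between siSocs3 and siNonTarget, 1684, lay between 1261 and 1784 under the replicate block, quantile normalization, median centring, a trended and robust prior, probe set means, a pseudocount of 16, the compared groups alone and the 2 filters on dim genes. It was 858 without both arrays of high actin difference and 493 with a 2-fold minimum, and single omitted arrays gave 63 to 2074, the lowest without siSocs3 replicate 1; the cause was not tested, beyond the fewer arrays of each such fit. Tested alone, 2412 of 34958 probe sets passed. Against the other targeted groups the count, 1025, lay between 851 and 1151 under the same alternatives and was 1058 without the arrays of high actin difference; it was 210 with a 2-fold minimum and 1559 over every probe set, and omitted arrays gave 120 to 1349. The share of changed genes that were higher was 38.8% against siNonTarget, 46.2% after quantile normalization and 46.6% after median centring; it was 82.5% without siSocs3 replicate 1 and 56.2% without siNonTarget replicate 1. Over all 3 probe sets of Socs3 the difference ran from 0.103 to 0.768 and none passed under any alternative.

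Same-numbered arrays of siSocs3 and siNonTarget did not deviate together (correlation of their deviations across genes 0.058). Over all pairs of groups it ran from -0.26 to 0.421, the highest for siFbxw7 and siNonTarget. Array siNonTarget replicate 1 correlated best with siFbxw7 replicate 1 (0.9974) and siNonTarget replicate 2 with siRnf31 replicate 2 (0.9971). Between the siNonTarget replicates the correlation was 0.9936. Given the low value for the compared groups, and no shared litter, batch or day in the labels, the numbers were not taken as pairs. With the replicate block 1517 genes changed, 1412 of them shared with the fit without it, and 25 of the 242 changed genes of the naming rule lost the call; against the other targeted groups 919 changed. Socs3 did not pass with the block.

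Among named genes 1 value reversed: Usp31, which fell (-0.44 ± 0.11, adjusted p = 0.0384), differed by 0.043 when all its probe sets were averaged. Of the 242 changed genes, 61 lost the call with probe set means, 92 without the arrays of high actin difference and 45 with the compared groups alone, whereas 0 of the 228 still tested lost it without the dimmest 30% of genes and 0 of the 187 still tested without the dimmest 50%. Of the genes that did not pass, 49 passed under at least 1 alternative. Near background, where many of the HOX genes of groups 7 to 13 lie, the arrays' signal limits what a fall could show.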
